A study of Mus musculus with 12 samples.

Results

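Livers of wild type and Siah2 KO (Siah2-/-) mice were examined here for 9 genes of fatty acid elongation and desaturation: the elongases Elovl1, Elovl2, Elovl3 and Elovl5, the desaturases Fads1, Fads2 and Scd2, and the reductases Hsd17b12 and Tecr. The genes were taken by symbol from the deposited count tables, which list 23420 symbols, and all 9 were present. SIAH2 is a ubiquitin ligase, and the study asked how its loss affects gene expression in the liver of each sex. RNA was counted with QuantSeq, a method that reads the 3′ end of polyadenylated transcripts, in 12 livers collected at ZT10, that is 10 h after lights on, from mice of about 20 weeks on a C57BL/6 background. There were 3 wild type females (mice 1089, 1090 and 1091), 3 Siah2 KO females (1070, 1104 and 1105), 3 wild type males (1055, 1086 and 1087) and 3 Siah2 KO males (1075, 1076 and 1081). The KO was constitutive, and both genotypes came from related lines founded by homozygous offspring of heterozygotes, so line and genotype cannot be told apart. The study's methods describe individual livers, whereas the sample labels speak of RNA pooled from 3 mice. In the second case the p-values measure only the spread between pools.

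Very-long-chain fatty acids are built in the endoplasmic reticulum from fatty acids that come from the diet or from fatty acid synthase. Each round lengthens the chain in successive steps: an ELOVL elongase condenses the acyl-CoA with malonyl-CoA, the 3-ketoacyl-CoA reductase encoded by Hsd17b12 makes the hydroxy intermediate, a HACD dehydratase removes water, and the enoyl-CoA reductase encoded by Tecr completes the round. The elongases differ in substrate: ELOVL1 and ELOVL3 act on saturated and monounsaturated chains, and ELOVL2 and ELOVL5 on polyunsaturated ones. FADS1 and FADS2 are the delta-5 and delta-6 desaturases of the same polyunsaturated series, which ends in arachidonic and docosahexaenoic acid, and SCD2 is a stearoyl-CoA desaturase that makes monounsaturated fatty acids. In mouse liver Elovl3 is known for its higher expression in males.

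Elovl2 occupies positions 41182382 to 41220403 of chromosome 13 (minus strand) in GRCm38.p6, the RefSeq assembly that corresponds to mm10, the build named in the submitters' processing notes. Elovl5 lies on chromosome 9 (77917365 to 77984519, plus strand), and Hsd17b12 on chromosome 2 (94032697 to 94157909, minus strand). Chromosome 19 holds 4 of the 9 genes: Fads2 (10062765 to 10101503, minus strand), Fads1 (10182877 to 10196874, plus strand), Scd2 (44293676 to 44306864, plus strand) and Elovl3 (46131897 to 46135694, plus strand). Fads1 and Fads2, which act in the same series of desaturations, are 81373 bp apart on opposite strands. Elovl1 shares genomic positions with Cdc20, Elovl3 with Pitx3, Elovl5 with Gm34771, and Tecr with 2 long noncoding RNAs. No source used here states the strand setting of the counting, so reads of such pairs may not have been told apart. Scd2 has the close relatives Scd1, Scd3 and Scd4, and reads that match several of them may have been split or dropped.

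Promoters of the members were read from RefSeq windows on GRCm38.p6, trimmed to the 250 bases before the annotated start. Windows were found for 6 of the 9 genes. Those of Elovl2 and Elovl5, which encode the elongases of polyunsaturated chains, and of Hsd17b12, the shared reductase, are printed here because the differences described below concern these genes or contrast with one of them. Capitals mark matches, on either strand, to the E-box CACGTG, which circadian bHLH factors can bind, to CCAAT and to the GC box GGGCGG:
Elovl2, chr13:41220404-41220653, minus strand: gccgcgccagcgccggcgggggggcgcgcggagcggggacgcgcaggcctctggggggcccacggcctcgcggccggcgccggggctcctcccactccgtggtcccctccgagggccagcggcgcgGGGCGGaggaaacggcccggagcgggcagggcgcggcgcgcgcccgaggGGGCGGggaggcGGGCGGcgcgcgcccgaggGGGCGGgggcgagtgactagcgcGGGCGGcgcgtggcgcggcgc
Elovl5, chr9:77917115-77917364, plus strand: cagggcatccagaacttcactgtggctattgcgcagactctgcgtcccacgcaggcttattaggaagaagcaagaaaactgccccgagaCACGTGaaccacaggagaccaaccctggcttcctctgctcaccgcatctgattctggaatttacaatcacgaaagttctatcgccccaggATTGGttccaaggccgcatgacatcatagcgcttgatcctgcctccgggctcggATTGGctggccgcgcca
Hsd17b12, chr2:94157910-94158159, minus strand: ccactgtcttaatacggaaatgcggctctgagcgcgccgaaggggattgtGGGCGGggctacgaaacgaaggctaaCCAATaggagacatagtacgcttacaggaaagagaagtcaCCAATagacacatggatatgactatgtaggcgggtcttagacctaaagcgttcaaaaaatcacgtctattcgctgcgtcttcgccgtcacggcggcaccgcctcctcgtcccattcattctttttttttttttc
The printed Elovl2 window had a GC content of 87.2% and 5 GC boxes, and it held neither an E-box nor a CCAAT. A second Elovl2 window in the same table, at chr13:41220163-41220412 and mostly inside the gene, had 79.6% GC and no match to any of the motifs. In the Elovl5 window, with 55.6% GC, there were 1 E-box and 2 CCAAT matches, and no GC box. The Hsd17b12 window, with 49.6% GC, held 2 CCAAT matches and 1 GC box. Among 32851 mouse promoter windows of the same length, CACGTG was found in 6.02%, CCAAT in 33.8% and GGGCGG in 32.7%. A D-box (TTATGTAA, 0.819% of windows) and the palindrome TTCNNNGAA (7.02%), which STAT5 can bind, were found in none of the members' windows. A nuclear receptor half-site AGGTCA (14% of windows) was found in 1 of them, a window of Elovl1. In the other Elovl1 window a CCAAT and a GC box overlap. These matches describe letters only, and no binding was measured.

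The libraries held 1293688 to 4056144 counted reads each. Levels are given as CPM, the counts scaled to a common library total after adjustment by edgeR's TMM factors, without a correction for length, since the method counts transcript ends. The 45S ribosomal precursor Rn45s took 5.68 to 17.9% of the counts. Xist, expressed from the inactive X chromosome, and the Y-linked Ddx3y matched the labelled sex of all mice. Siah2 itself was 10.7 ± 1.57 CPM in KO and 13.5 ± 2.93 in wild type females, and 13.9 ± 4.05 in KO and 21.7 ± 5.15 in wild type males (mean ± SD, n = 3). edgeR did not call it (adjusted p = 0.9999 in males), and because a 3′ read can lie outside the deleted part, it does not test the label. Hepatocyte markers (6 of 6 detected, Alb among them) summed to between 24898 and 39081 CPM. Wild type female 1091 stood apart: the chi-square per degree of freedom over genes was 47.9 and 51.0 against the other wild type females, and 7.45 to 25.1 for every other pair of mice in the same group. For the genotype difference in females, fits of the members are given with and without it. For the wild type sex difference and the difference between the sexes in the KO change, this was done for some members only. With both sexes combined, the members' fold changes are given only with it. Marker sums, tests of other named genes and correlations over all mice are given only with it.

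Among the elongases, Elovl5 and Elovl2 had the highest levels. Elovl5, which extends polyunsaturated chains early in the series, was 1225 ± 436 CPM in wild type females, 1125 ± 353 in KO females, 1118 ± 318 in wild type males and 1132 ± 60.2 in KO males. These 4 means lay within 0.11 of each other on the log2 scale of CPM, the narrowest range of the 9 genes, and individual mice ran from 888 to 1728 CPM. The differences between the groups were thus smaller than the spread between mice. Elovl1, which acts on saturated chains, was far lower, at 15.1 ± 4.77 CPM in KO females and 20.9 ± 3.37 to 22.6 ± 6.03 in the other groups, and all groups overlapped.

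Elovl2, which carries the longer polyunsaturated chains towards docosahexaenoic acid, was 803, 768 and 1414 CPM in wild type females. In KO females it was 534, 574 and 572 CPM. In wild type males the values were 819, 596 and 729 CPM, and in KO males 764, 805 and 897 CPM. The 3 KO females were thus the lowest of all 12 mice, and mouse 1091 was the highest. By group mean the order was KO females (560 ± 22.7), wild type males (714 ± 112), KO males (822 ± 68.4) and wild type females (995 ± 363). The 2 male groups, neighbours in this order, did not differ beyond their spread, and neither did wild type females and wild type males (edgeR adjusted p = 0.462).

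Elovl3, an elongase of saturated and monounsaturated chains, was 4.30, 12.5 and 6.98 CPM in wild type females and 3.77, 6.23 and 3.59 CPM in KO females. Wild type males had 340, 147 and 252 CPM, and KO males 362, 242 and 349 CPM. No female came near a male: the highest female value was 12.5 CPM and the lowest male value 147 CPM. Elovl3 also had the widest range of group means among the 9 genes, 5.83 on the log2 scale of CPM. The order was KO females, wild type females, wild type males and KO males, and neither of the steps within a sex was larger than the spread between mice.

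For Fads1 and Fads2 every group overlapped every other. Fads1, the delta-5 desaturase, lay between 192 and 314 CPM in all mice, with group means of 251 ± 15.6 to 288 ± 34.1 CPM. Fads2, the delta-6 desaturase, was much lower in these 3′ counts, between 12.02 and 30.0 CPM, and its group means ran from 14.8 ± 1.10 in KO females to 19.3 ± 6.30 in wild type males. Scd2 was close to the limit of detection, with 0 to 14 counts per library. Its 0 counts in wild type male 1055 allow up to 2.28 CPM (3 counts), an interval for counting error only. Scd2 reached 3.30 to 5.38 CPM in KO females and 0.952 to 3.23 CPM in wild type females, and it passed the filter on low counts in females and in the fits of all mice, but not in males or in either comparison between the sexes.

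The reductases are shared by all elongation cycles. Hsd17b12 was 208, 199 and 515 CPM in wild type females and 259, 238 and 163 CPM in KO females. In wild type males it was 487, 304 and 359 CPM, and in KO males 495, 307 and 404 CPM. All females except mouse 1091 lay below all males, and mouse 1091 lay above all of them. Tecr stayed between 59.7 and 92.1 CPM, with group means from 69.7 ± 13.3 in wild type females to 84.7 ± 8.24 in wild type males.

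**Figure D1:**
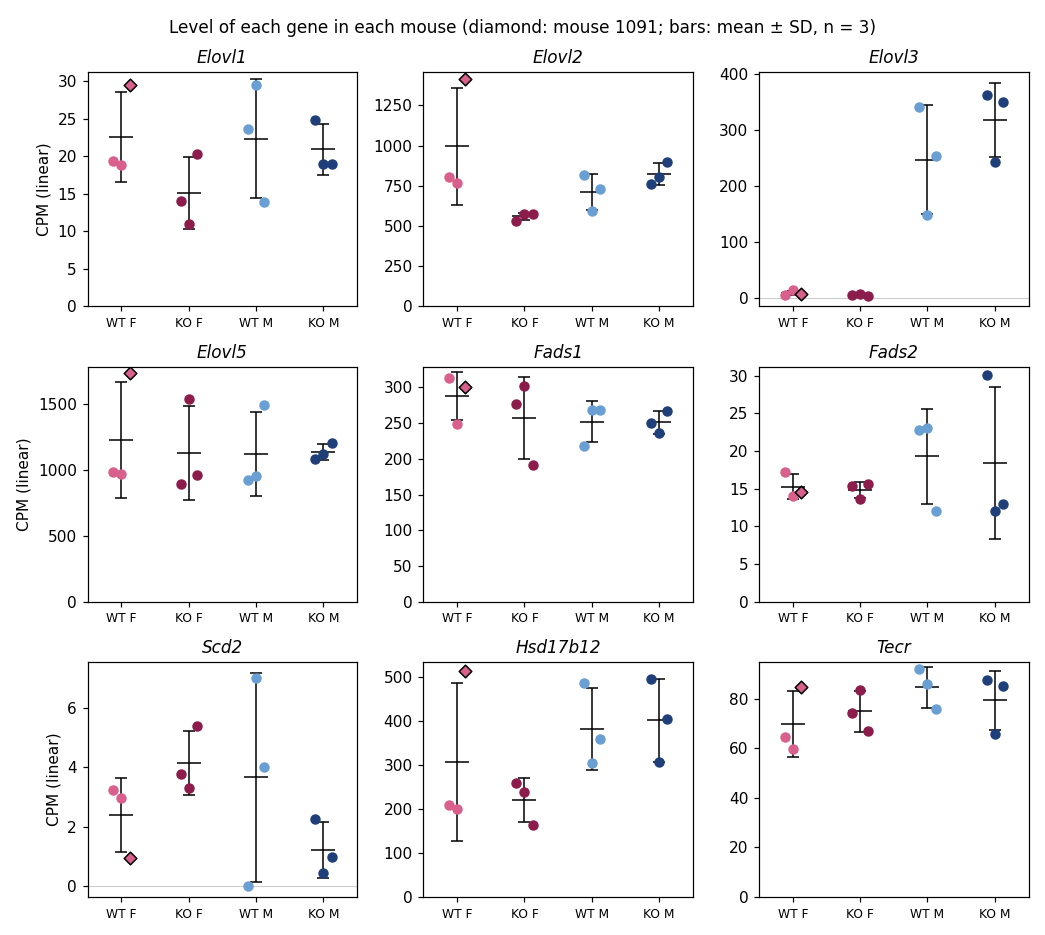
Level of each of the 9 genes in CPM (linear axis, a separate scale for each gene) in every mouse of the 4 groups (WT, wild type; KO, Siah2 KO; F, female; M, male), with the group mean ± SD (n = 3) as bars. Elovl3 is near 0 in both female groups and between 147 and 362 CPM in males, the Elovl2 values of KO females lie together at 534 to 574 CPM, and mouse 1091 (diamond) is the highest mouse for Elovl2, Elovl5 and Hsd17b12.

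To ask whether loss of SIAH2 was accompanied by a change of these genes in females, the 3 KO and 3 wild type females were compared with edgeR. Of the 9 genes, all of which passed the filter, none was called at an adjusted p under 0.05 (0% of 9465 genes tested were), and DESeq2 also called none of them (3.60% of its genes). At an unadjusted p under 0.05 edgeR had 1 member, Elovl2 (15.6% of all genes). Elovl2 was 1.79-fold lower in KO females, a log2 fold change of −0.84 (SE 0.28, edgeR adjusted p = 0.199). The groups did not overlap for 2 of the 9 genes, Elovl2, lower in KO, and Scd2, higher in KO. This share is close to the 23.4% of all tested genes without overlap. The Scd2 values came from 3 to 14 counts per library and gave a log2 fold change of 0.74 (SE 0.54, edgeR adjusted p = 0.563).

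The other elongases had log2 fold changes in KO females of −0.61 (SE 0.32) for Elovl1, −0.82 (SE 0.48) for Elovl3 and −0.13 (SE 0.32) for Elovl5. Those of the desaturases Fads1 and Fads2 were −0.18 (SE 0.25) and −0.06 (SE 0.26), and those of the reductases Hsd17b12 and Tecr −0.50 (SE 0.38) and 0.09 (SE 0.23). Their edgeR adjusted p-values were between 0.397 and 0.947. The interval for Fads1 ran from −0.72 to 0.37 and that for Tecr from −0.42 to 0.61, so changes within these bounds cannot be told from none. In all, 2 members were higher and 7 lower in KO females, with a median log2 fold change of −0.18 against −0.03 over all tested genes.

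Mouse 1091 had a large part in these values. It was the highest of the wild type females for 5 of the 9 genes, while 37.4% of all genes tested in females were highest in it. Relative to the mean of mice 1089 and 1090, its level was 2.53 times as high for Hsd17b12, 1.80 times for Elovl2, 1.78 times for Elovl5, 1.55 times for Elovl1 and 1.36 times for Tecr. By contrast, Fads1 and Fads2 were at 1.07 and 0.935 times that mean, Elovl3 at 0.829 times and Scd2, with 3 counts in this mouse, at 0.307 times. By a stricter measure, 14.9% of all genes tested in females exceeded each of these mice by over 1.5 times in mouse 1091. The members were not counted by that measure. Without mouse 1091, edgeR again called none of the 9 genes in females, although it then called 9.64% of all genes. The Elovl2 difference fell to −0.49 with a smaller error (SE 0.16, edgeR adjusted p = 0.0835, DESeq2 adjusted p = 0.0529), and the 3 KO females still lay below the remaining 2 wild type females. Over all alternative settings its adjusted p lay between 0.0529 and 0.493. Without this mouse the Scd2 difference was 0.37 (SE 0.52). The sign changed for Hsd17b12 (0.11, SE 0.21) and Elovl5 (0.21, SE 0.24).

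**Figure D2:**
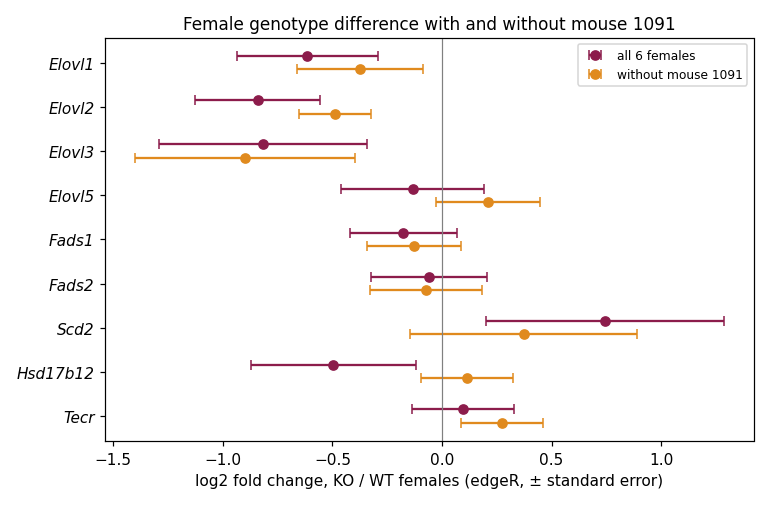
Log2 fold change of each gene in KO relative to wild type females (edgeR, bars ± SE), with all 6 females and without wild type female 1091. Elovl2 moves from −0.84 to −0.49 and keeps its direction, whereas Hsd17b12 moves from −0.50 to 0.11 and Elovl5 from −0.13 to 0.21.

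Some marker sums also differed between KO and wild type females, whereas those of hepatocytes, immune, stellate, bile duct and acinar cells overlapped. Of all single genes tested, 23.4% did not overlap between these groups. Endothelial markers (6 of 6 detected) summed to 218 to 231 CPM in KO and 239 to 317 in wild type females. Lyve1 among them went the other way on average (25.8 CPM in KO and 11.7 in wild type females). Fat cell markers summed to 58.0 to 110 CPM in KO and 47.6 to 54.9 in wild type females, nearly all of it from Fabp4, and the defining marker Plin1 was at 0 in all 12 mice. Alas2, the only red blood cell gene detected, was 8.43 to 19.1 CPM in KO and 19.99 to 25.1 CPM in wild type females, and the 4 hemoglobin symbols in the tables were at 0 in all mice. The part of these cells in the Elovl2 difference was not tested. In RNA of whole liver, fewer cells of a type and less RNA per cell cannot be told apart.

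In males, no genotype difference was called for these genes. Of the 8 that passed the filter, edgeR called none (0% of 8823 genes), and none had an unadjusted p under 0.05 (4.05% of genes). DESeq2 called none of them either (0.0370% of genes), and KO and wild type males overlapped for all of them (8.87% of genes did not overlap). Elovl2 had a log2 fold change of 0.19 (SE 0.15), with an interval from −0.13 to 0.52. For Elovl3 it was 0.36 (SE 0.25) and the interval reached from −0.17 to 0.89. The others lay between −0.10 for Tecr and 0.06 for Hsd17b12. The intervals of Elovl5 (−0.38 to 0.39) and Fads1 (−0.34 to 0.30) were narrow, and that of Fads2 (−0.85 to 0.75) was wide. In males 4 members were higher and 4 lower, with a median of −0.01, the same as over all genes (−0.01).

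With both sexes combined and sex as a term in the fit, no member was called by edgeR (0.0102% of 9806 genes were) or by DESeq2 (0.0112%), and none had an unadjusted p under 0.05 (7.20% of genes). Elovl2 then had a log2 fold change of −0.31 (SE 0.21), and Elovl1 of −0.34 (SE 0.23). Although 8 of the 9 genes were lower in KO, the median was only −0.08, against −0.01 over all genes.

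**Figure D3:**
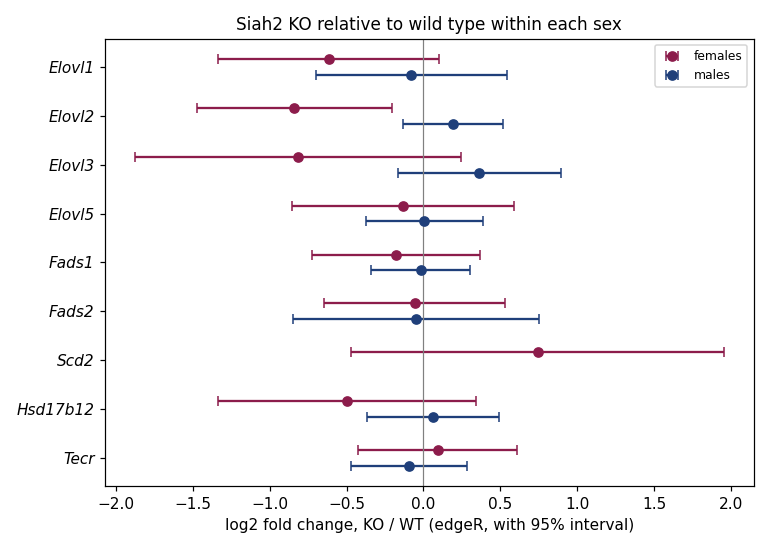
Log2 fold change of each gene in KO relative to wild type mice within females and within males (edgeR, bars show the 95% interval). In females the interval of Elovl2 lies below 0, from −1.48 to −0.21, but its adjusted p is 0.199, and in males all intervals include 0. Scd2 was not tested in males.

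Whether the KO difference itself depended on sex was tested as the log2 change in females minus that in males. edgeR called none of the 9 genes (0.255% of 9806 genes) and neither did DESeq2 (3.46%). At an unadjusted p under 0.05 there were 3 members, Elovl2, Elovl3 and Scd2 (14.1% of all genes). For Elovl2 the change in females was lower than that in males by 1.03 on the log2 scale (a difference of −1.03, SE 0.33, edgeR adjusted p = 0.157). For Elovl3 the difference was −1.18 (SE 0.55, edgeR adjusted p = 0.346), and for Scd2, at very low counts, 2.41 (SE 1.08, edgeR adjusted p = 0.328). Without mouse 1091, the Elovl2 difference was −0.68 (SE 0.22, edgeR adjusted p = 0.0842). DESeq2 then called it, as the only member (adjusted p = 0.0219, 9.28% of genes called), an alternative added after the data were seen. Its adjusted p over all alternatives lay between 0.0219 and 0.342. For Elovl2 the call thus depended on both the tool and mouse 1091.

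Sex differences were next examined within each genotype, as females relative to males. In wild type mice Elovl3 was the 1 member called among the 8 tested, both by edgeR (1.39% of 9335 genes) and by DESeq2 (3.68%), and the only one whose groups did not overlap (22.7% of genes). It was 29.8-fold lower in females, a log2 fold change of −4.90 (SE 0.45, edgeR adjusted p = 0.000392). Its adjusted p stayed at or below 0.00460 under all alternatives. The remaining members lay between −0.28 for Fads2 (SE 0.33) and 0.52 for Elovl2 (SE 0.31), with a median over all 8 of −0.08 against 0.05 for all genes. Without mouse 1091, edgeR called 2 members (7.73% of genes), as Hsd17b12 joined Elovl3 at −0.90 (SE 0.22, adjusted p = 0.0302). Over all alternatives the adjusted p of Hsd17b12 reached from 0.00194 to 0.994. Elovl2 moved from 0.52 to 0.15 without this mouse. Alas2, the only red blood cell gene detected, also differed in wild type mice (19.99 to 25.1 CPM in females, 83.6 to 104 in males). So did the sums of endothelial markers (239 to 317 and 182 to 230 CPM), though Lyve1 went the other way on average (11.7 and 21.5 CPM). Bile duct markers (5 of 5 detected) summed to 9.84 to 44.8 and 47.2 to 56.0 CPM, and the other cell type sums overlapped. The part of these cells in the Elovl3 difference was not tested.

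In Siah2 KO mice 3 of the 8 members tested were lower in females, Elovl3, Hsd17b12 and Elovl2. All 3 were called by edgeR (11.5% of 9102 genes) and by DESeq2 (10.1%), and the groups did not overlap for the same 3 (30.7% of genes). Elovl3 was 68.6-fold lower in KO females than in KO males (log2 fold change −6.10, SE 0.26, edgeR adjusted p = 1.65e-09). Hsd17b12 was 1.81-fold lower (−0.86, SE 0.20, edgeR adjusted p = 0.0129) and Elovl2 1.46-fold lower (−0.55, SE 0.15, edgeR adjusted p = 0.0262). The values behind this were 163 to 259 CPM in KO females and 307 to 495 CPM in KO males for Hsd17b12, and 534 to 574 against 764 to 897 CPM for Elovl2. These calls had a limited margin. In 1 fit of all 4 groups the adjusted p rose to 0.173 for Hsd17b12 and 0.211 for Elovl2 at nearly the same fold changes (−0.87 and −0.55). The Elovl2 call was also lost without mouse 1076, 1081, 1070 or 1104 (edgeR adjusted p of 0.0550 to 0.120), and the Hsd17b12 call without mouse 1075 or 1081 (0.0645 and 0.0549). For Elovl1, log2 fold change −0.49 (SE 0.27), edgeR gave an adjusted p of 0.269, and Elovl5, Fads1, Fads2 and Tecr lay between −0.29 and 0.04. The median over the 8 genes was −0.39, and 0.00 in size over all genes tested.

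**Figure D4:**
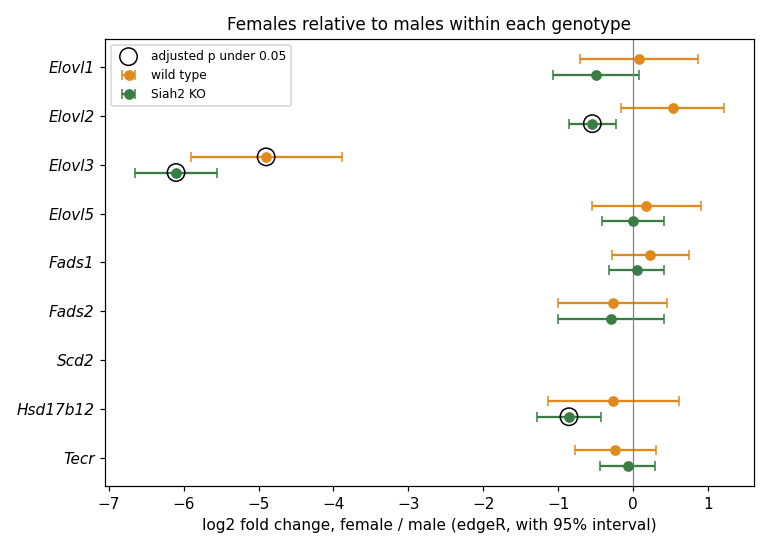
Log2 fold change of each gene in females relative to males, within wild type and within Siah2 KO mice (edgeR, bars show the 95% interval, rings mark an adjusted p under 0.05). Elovl3 stands far to the left in both genotypes, at −4.90 and −6.10, and Elovl2 lies at 0.52 in wild type and at −0.55 in KO mice. Scd2 was not tested.

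The sex difference of Elovl2 thus had opposite signs in the 2 genotypes, but only that in KO mice was called, and the test of the difference between them is the one given above for the KO change (edgeR adjusted p = 0.157). Other cell markers also differed between KO females and KO males. Kupffer and other immune cell markers (12 of 12 symbols detected) summed to 362 to 843 CPM in KO females and 107 to 246 in KO males. Endothelial markers summed to 218 to 231 and 170 to 195 CPM. Among them Stab2 went the other way on average (33.1 CPM in KO females and 43.3 in KO males), and Oit3 was nearly equal (16.4 and 16.5 CPM). Alas2, the only red blood cell gene detected, was 8.43 to 19.1 against 102 to 154 CPM. Acinar cell markers (4 of 6 detected, Cpa1 and Prss1 at 0) summed to 13.2 to 22.4 and 24.2 to 58.0 CPM. Nearly all of this sum came from Cela1, which alone overlapped (up to 21.5 CPM in KO females, from 20.7 CPM in KO males). Cela2a went the other way on average (0.399 and 0.125 CPM), and Pnlip was at 0 in both KO groups. The part of these cells in the 3 calls was not tested.

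For Elovl3 and Elovl2 the genes with the most similar pattern over the 12 mice were sought among the 6706 genes that averaged 10 CPM or more. With Elovl3 these were Cyp4a12b (Pearson r of log2 CPM 0.981), Ddx3y (0.976), Eif2s3y (0.973), Cyp2d9 (0.973) and Mup14 (0.968), all of which were much higher in both male groups. Cyp4a12b and Cyp2d9 are cytochrome P450 genes, Mup14 encodes a major urinary protein, and Ddx3y and Eif2s3y are on the Y chromosome. With Elovl2 these were F12 (r = 0.929), which encodes coagulation factor XII, Mrps6 (0.897), Dcaf8 (0.891), Mrto4 (0.890) and Rps14 (0.880). F12 averaged 702 CPM in wild type and 427 CPM in KO females, and 477 and 515 CPM in wild type and KO males. These correlations describe the same 12 libraries, which for Elovl3 fall into 2 clusters by sex. Those with Elovl2 include mouse 1091, the highest for this gene, and were not repeated without it.

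Among the other elongases and desaturases, 3 of 8 (Elovl6, Scd1 and Fads3) had enough counts to be tested, and edgeR called none in any comparison. Elovl6, which extends palmitate to stearate, had mean levels of 76.0 ± 10.6 CPM in KO females and 45.3 ± 9.18 in their wild type counterparts, without overlap (log2 fold change 0.74, SE 0.24, edgeR adjusted p = 0.197). This is opposite in sign to Elovl2. Scd1, the main stearoyl-CoA desaturase of liver, was 1513 ± 202 and 1626 ± 515 CPM in the same groups and 2414 ± 752 and 2368 ± 437 CPM in wild type and KO males, so that Scd2 was a very small part of the SCD reads.

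For the other steps of an elongation cycle, 7 of the 9 listed genes present in the tables were tested. The HACD dehydratases and electron donors held 0 calls between the genotypes and 1 between KO females and KO males, Cyb5r3, a reductase that passes electrons to cytochrome b5, at −0.68 (SE 0.16, edgeR adjusted p = 0.0120). The dehydratase gene Hacd2, listed as Ptplb, was 0.952 CPM in mouse 1091, 0.0499 times the mean of the other wild type females, where Hsd17b12 and Elovl2 were high. Of the 7 genes of fatty acid synthesis, all tested, none was called between the genotypes. In KO mice 1 was higher in females, Thrsp, a lipogenic regulator (1.35, SE 0.36, edgeR adjusted p = 0.0249, DESeq2 adjusted p = 0.159), and 1 lower, Me1, malic enzyme (−0.73, SE 0.17, edgeR adjusted p = 0.0149). Relative to wild type females, Thrsp had a log2 fold change of 1.23 in KO females (SE 0.41, edgeR adjusted p = 0.198), with overlap between the groups.

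The last step of docosahexaenoic acid synthesis takes place in peroxisomes. Of 11 genes for this step and for placing polyunsaturated chains in phospholipids, 9 were tested, and none was called between the genotypes. Abcd2, a peroxisomal transporter of very-long-chain acyl-CoA, was higher in females in both genotypes, at 103 ± 30.5 against 14.2 ± 0.907 CPM in wild type mice (log2 fold change 2.90, SE 0.31, edgeR adjusted p = 0.00126) and 89.3 ± 14.3 against 10.8 ± 2.86 CPM in KO mice (3.06, SE 0.23, edgeR adjusted p = 4e-07). Scp2, a thiolase and sterol carrier gene, was lower in KO females than in KO males (−1.48, SE 0.15, edgeR adjusted p = 1.56e-05), as was the thiolase gene Acaa1b (−1.08, SE 0.20, edgeR adjusted p = 0.00258). DESeq2 also called Scp2 between wild type females and males (−0.80) and for the difference between the sexes in the KO change (−0.69, DESeq2 adjusted p = 0.0275, edgeR adjusted p = 0.209).

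Regulators of these genes were counted last. Of 22 listed, 18 to 21 were tested in each comparison, and edgeR called none between the genotypes. The lowest edgeR p-values in females were those of Srebf2, which drives sterol synthesis (−1.78, SE 0.62, adjusted p = 0.203), Bcl6 (−0.83, SE 0.31, adjusted p = 0.228) and Mlx (0.67, SE 0.27, adjusted p = 0.264). Srebf2 was low and variable, at 13.5 ± 11.1 CPM in wild type and 4.07 ± 1.89 CPM in KO females, and these groups overlapped. Between KO females and KO males 2 regulators were lower, Mlxipl, the carbohydrate response factor ChREBP (−0.87, SE 0.15, edgeR adjusted p = 0.00142), and Insig2, which holds SREBP proteins in the endoplasmic reticulum (−0.80, SE 0.22, edgeR adjusted p = 0.0285). Mlx, the partner of Mlxipl, was called only by DESeq2 and only between wild type females and males (−1.16, DESeq2 adjusted p = 0.0415). In males the listed genes with an unadjusted edgeR p under 0.05 were Bcl6 (−1.38), Scp2 (0.33), Ptplb (−0.55) and Acly (−0.68), and with both sexes combined Esr1 (−1.12), Bcl6 (−1.12) and Acacb (−0.66). Between wild type females and males, Srebf2 (1.82, adjusted p = 0.181) and Nr1h3 (0.65, adjusted p = 0.272) also had an unadjusted edgeR p under 0.05. For the difference between the sexes in the KO change the lowest edgeR p was that of Srebf2 (−2.64, adjusted p = 0.173). Elovl6 (0.95, adjusted p = 0.269), Mlx (0.68, adjusted p = 0.332) and Ptplb (1.62, adjusted p = 0.335) had an unadjusted edgeR p under 0.05 there too. The median log2 fold changes in KO females were 0.74 for the other elongases and desaturases, −0.14 for dehydratases and electron donors, 0.09 for fatty acid synthesis, −0.21 for the peroxisomal and phospholipid genes and −0.12 for the regulators, against −0.03 over all genes.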

How the data were processed

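Liver RNA of 12 mice (3 per sex and genotype) had been counted per gene symbol. The authors deposited raw counts for 1 table per sex, made on BaseSpace; the submitters' processing notes name STAR, DESeq and mm10. In the counts, 27 symbols had become dates and were kept in totals only. edgeR 4.0.16 in R 4.3.3 was the test (filterByExpr, TMM, quasi-likelihood F test, two-sided, Benjamini-Hochberg adjustment over all genes, threshold 0.05), fitted on the groups compared or, for both sexes and the difference between the sexes, on all mice. Alternatives were DESeq2 1.42.0, limma-voom (limma 3.58.1), RLE or no scaling, no filter beyond 1 count, a fit without the sex term, 1 fit of all 4 groups, and leaving out each mouse. DESeq2 without mouse 1091 was added after the data were seen. Similarity used log2 CPM with a prior count of 3. The edgeR fits were tested on simulated data, with changes planted only in well-expressed genes. These were larger than the members' genotype differences within a sex, so the simulation does not show whether such differences could be found. The members and lists were chosen with earlier results of these data known. All 9 members are named; genes of the lists are named where edgeR or DESeq2 called them or edgeR gave an unadjusted p under 0.05, at most 6 per comparison (Thrsp and Insig2 between KO females and males were added after their values were seen). A gene of the lists that met this rule is not reported here. Promoters and positions are RefSeq's. Python 3.11.15 drew the figures.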

Additional observations from a re-analysis of the deposited data

How the results depend on the processing

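No paired analysis was possible because mouse numbers are not shared between groups. Of 744 fold changes of the 9 genes under an alternative, 733 kept their call, 8 lost it, 3 gained it and none reversed a call; 81 changed sign without being called. Called members rose from 1 to 2 between wild type females and males without mouse 1091 (edgeR and DESeq2; 1 to 2 over the mice left out), fell from 3 to 1 between KO females and males in 1 fit of all groups (1 to 3 over the mice left out), and rose from 0 to 1 for the difference between the sexes with DESeq2 without mouse 1091. Between the genotypes they were 0 in every setting run. Over all genes, edgeR's count in females was 0, against 301 (DESeq2), 484 (no filter), 427 (all groups), 831 (DESeq2 without mouse 1091) and 0 to 936 (mice left out, 936 without 1091). In males it was 0, against 6, 29 (no filter) and 0 to 3. With both sexes it was 1, against 2 (DESeq2), 71 (no filter), 3 (DESeq2 without mouse 1091) and 0 to 2. Between wild type females and males it was 130, against 338, 536, 505, 737 and 43 to 740 in the same order as for females. Between KO females and males it was 1044, against 352 (all groups) and 486 to 1056. For the difference between the sexes it was 25, against 265 (DESeq2), 0 (no scaling), 325 (no filter), 644 (DESeq2 without mouse 1091) and 0 to 522. The cause was not tested. Scd2, at 0 to 14 counts per library, is limited by depth.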

Other observations

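The level of Elovl2 relative to Elovl5, the 2 elongases of polyunsaturated chains, was computed within each library after the values above had been seen. It does not depend on the scaling of the libraries. In wild type females the ratio of counts was 0.819, 0.796 and 0.818, mouse 1091 being the last, and in KO females it was 0.601, 0.375 and 0.599. Mouse 1091, which was high for both genes, therefore had the same ratio as the other wild type females. The groups did not overlap, with a mean log2 difference of −0.66, and an exact two-sided permutation test gave p = 0.1, the smallest value that 3 against 3 mice allow. Because the pair was chosen with its values known, this p describes the separation and is no independent test. The share of other gene pairs without overlap was not computed. In wild type males the ratios were 0.888, 0.628 and 0.490 and in KO males 0.706, 0.721 and 0.749, which overlap (log2 difference 0.16, exact permutation p = 0.7).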
